A study of Mus musculus with 38 samples.

Results

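LAP2B CUT&RUN was compared between primed and naive wild type (WT) mouse embryonic stem cells, gene by gene and transposable element (TE) family by TE family. The members are the 3 WT EpiLC and the 3 WT naive mESC libraries made with the anti-LAP2 antibody, taken by their labels. They are 6 of the 38 samples of the series, of which 36 have columns in the gene and TE tables and the other 2 were not analysed here. CUT&RUN cuts and releases the DNA that lies next to an antibody-bound protein in intact cells, so that sequencing coverage reports how often each stretch of the genome was near that protein. Naive mESCs were grown without serum or feeders in 2i and LIF medium, with CHIR-99021 at 3 µM and PD0325901 at 1 µM. EpiLCs (epiblast-like cells, the primed stage) were made from the same WT cells in N2B27 medium with FGF at 20 ng/mL and activin A at 12 ng/mL. Both stages were collected at 48 h, each replicate took 200000 cells, and 0.3 pg of yeast DNA was added as a spike-in. The antibody was raised to a stretch of LAP2 that is in part common to the LAP2α and LAP2β isoforms and in part found in LAP2β alone, and the study takes it to see mainly LAP2β. By the study's methods WT is 1 line, and its karyotype is mixed, mostly normal with one subpopulation that lost the Y chromosome and another that lost Y and gained chromosomes 6 and 8. WT libraries made with a lamin B1 antibody (LMNB1) and with a secondary antibody alone (IGG), 3 per stage each, are used only for comparison. LAP2B libraries of LBRKO, TKO and QKO cells are compared too. They also enter the filter on low values and the estimate of spread behind the WT tests. LBRKO cells lack the lamin B receptor, TKO cells lack all lamin isoforms, and QKO cells, a single surviving clone, lack both. Nothing in the labels says that replicates came from separate cultures, so a p value here measures the spread between libraries. In the main LAP2B tests by gene and TE family that spread includes the mutant libraries. The coverage does not measure transcripts, so the identity of the naive and primed cells could not be checked with marker genes.

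LAP2 is an inner nuclear membrane protein of the LEM domain family, encoded by Tmpo, and binds both chromatin and lamins. The nuclear lamina is the protein meshwork under that membrane, and the long, gene-poor, AT-rich and mostly silent stretches of chromatin that touch it are called lamina-associated domains. Naive cells stand for the epiblast before implantation and EpiLCs for the epiblast soon after it, a step in which naive factors are switched off and DNA methylation and lineage competence are gained. A higher LAP2B value at a gene is meant to report that its DNA was more often near LAP2. It says nothing by itself of how much the gene was transcribed. Background cutting, as seen with IGG, can also enter the value, and its part was not tested. The study did not use LAP2β to mark lamina-associated domains in EpiLCs. It reported LAP2β signal both inside and outside such domains in WT EpiLCs, while lamin B1 contacts stayed mostly the same. The value is an average over cells, so LAP2B at a gene in fewer cells and less LAP2B at it in every cell cannot be told apart.

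From the naive to the primed stage LAP2B coverage fell at genes with much LMNB1 and rose at genes with little, relative to the median gene. The largest median falls among the families were those of the Speer genes, the Pramel genes, the serpins of groups A and B and the killer cell lectin-like receptors. The largest median rises were those of the Hox clusters and the ribosomal protein genes. Of 70381 genes tested, 10600 were higher in EpiLCs (15.1% of those tested) and 12186 were lower (17.3%), by limma with Benjamini-Hochberg adjusted p under 0.05. In this test values were taken relative to the median gene of each library, so a change is relative to the typical gene of its own library, and all log2 changes below are EpiLC minus naive on that scale unless another is named. The log2 values carry a pseudocount of 0.1 of the median gene, which understates the change of genes with little coverage. The values of the 3 EpiLC libraries lay wholly above or wholly below those of the 3 naive libraries at 27684 genes (39.3%), above at 11746 and below at 15938. The median change of all genes was -0.06. When libraries were divided by the mean over genes instead, that median moved to 0.13, and the split became 16506 higher (23.5% of genes tested) and 5357 lower (7.61%), 75.5% of the calls higher against 46.5%. A change of divisor shifts all genes by nearly the same amount, so the sign of a change close to 0 depends on it. The counts were 6976 higher and 7430 lower without naive replicate 2, and no other library moved the total by more than 1.5 times. With the 6 WT libraries alone, without the mutants in the fit, 7351 genes were higher and 10254 lower.

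The median gene held 60, 84 and 56 reads in the 3 EpiLC libraries and 72, 44 and 52 in the 3 naive libraries. Whether this depth is enough was not tested. The reads recovered over genes numbered 21548541, 29685076 and 18713692 in the 3 EpiLC libraries and 28566810, 19264866 and 20146908 in the 3 naive libraries, each read counted in every gene it touches. On the deposited spike-in scale, the log2 of the library mean over all genes was 3.61 ± 0.31 (SD, n = 3) in EpiLCs and 3.66 ± 0.31 (SD, n = 3) in naive cells, a difference of -0.05 (exact permutation p, two-sided, of 1), where the smallest p that 3 against 3 can give is 0.1. The total LAP2B level was thus not separable between the stages at this spread. The IGG level on its own spike-in scale was 1.85, 3.00 and 1.62 in EpiLCs and 1.31, 0.83 and 1.44 in naive cells. Every EpiLC library was thus above every naive one with IGG. The methods name no spike-in constant for IGG, and the part of this background rise in LAP2B coverage was not tested. With the spike-in scale kept in the LAP2B test, 7306 genes (10.4%) were higher and 1290 (1.83%) lower, and single libraries moved these counts. The higher count was 4429 without EpiLC replicate 1, 1332 without EpiLC replicate 3 and 3823 without naive replicate 1, and the lower count was 522 without EpiLC replicate 2, 493 without EpiLC replicate 3 and 238 without naive replicate 2. The redistribution between genes, which the relative scale shows, is what follows.

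The shift followed naive LMNB1 coverage. Genes were ranked by their mean LMNB1 coverage per 1 kb bin in the 3 naive WT LMNB1 libraries, which share no library with LAP2B, and divided into 10 equal classes of 7031 or 7032 genes. In the class with the least LMNB1, 2997 genes rose and 128 fell, with a median log2 change of 0.46. In the class with the most, 10 rose and 3416 fell, with a median of -0.56. The medians went down at every step between, from 0.42 in the second class through 0.02 in the fifth to -0.45 in the ninth. Dividing by the mean over genes moved the ends to 0.64 and -0.36 and left the order of the classes as it was. The counts were then 3789 higher and 48 lower in the first class and 40 and 2052 in the last. On the spike-in scale they were 2398 and 21, and 5 and 724. In the first class 83 genes fell without naive replicate 2, and in the last 2242 fell without that library and 3 rose without EpiLC replicate 3.

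The same is seen in the libraries one by one. In the class with the least LMNB1, the mean LAP2B coverage per bin, relative to the library's median gene, was 0.141, 0.163 and 0.158 in EpiLC replicates 1 to 3 and 0.110, 0.0955 and 0.117 in naive replicates 1 to 3. In the class with the most it was 0.359, 0.305 and 0.315 in EpiLCs against 0.479, 0.564 and 0.453 in naive cells. In the fifth class the stages lay close together, 0.2, 0.208 and 0.205 against 0.195, 0.195 and 0.196. The 3 EpiLC libraries did not overlap the 3 naive libraries in any of the 10 classes, and naive replicate 2 was the farthest from the EpiLC libraries at both ends.

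**Figure D1:**
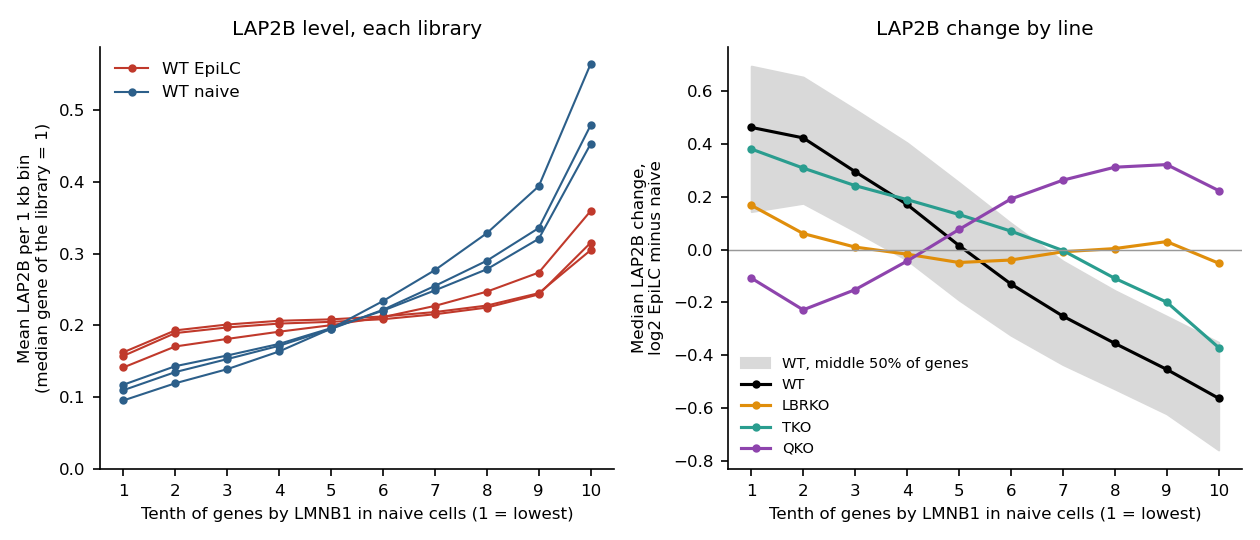
LAP2B by lamina class. The x axes give the 10 classes of genes by naive WT LMNB1 coverage per 1 kb bin, from least to most; the left y axis gives mean LAP2B per bin in each of the 6 WT libraries (median gene of the library is 1), and the right y axis the median log2 change, EpiLC minus naive, in WT (grey band, middle 50% of genes), LBRKO, TKO and QKO. The WT change falls from 0.46 in the first class to -0.56 in the last and crosses 0 after the fifth, and the QKO change goes the other way, from -0.11 to 0.22.

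A lamina contrast was computed for each library after dividing the genes into 4 equal classes by LMNB1, the log2 ratio of mean LAP2B per bin in the class with the most LMNB1 to that in the class with the least. It was 0.92, 0.55 and 0.59 in the EpiLC libraries (0.69 ± 0.20, SD, n = 3) and 1.59, 2.00 and 1.44 in the naive libraries (1.68 ± 0.29, SD, n = 3). The stages did not overlap and differed by -0.99 (exact permutation p, two-sided, of 0.1), the smallest that 3 against 3 allows. Classes taken from the EpiLC LMNB1 libraries gave a difference of -0.65, again without overlap. The IGG libraries, cut with no primary antibody, had a contrast of -0.09 ± 0.04 in EpiLCs and 0.26 ± 0.20 in naive cells (SD, n = 3 each), a difference of -0.35 in the same direction, and the part of the IGG pattern in the LAP2B result was not tested.

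Base composition moved with it. Of 10 equal classes by GC content over the gene body, that with the lowest had 64 genes that rose and 2649 that fell, with a median change of -0.41, and in that with the highest 2140 rose and 289 fell, with a median of 0.34. In the first of these 31 rose without EpiLC replicate 2, and 1610 and 1447 fell without EpiLC replicate 3 and without naive replicate 2, and in the last 181 fell without naive replicate 2. With division by the mean over genes the counts were 152 higher and 1234 lower in the first and 2791 and 118 in the last. On the spike-in scale they were 35 and 233, and 1787 and 62. The GC contrast per library, the log2 ratio of mean LAP2B per bin in the most to the least GC-rich of 4 equal classes, was 0.10, 0.28 and 0.50 in EpiLCs and -0.18, -0.47 and -0.13 in naive cells. Its difference of 0.55 had an exact permutation p of 0.1, without overlap. The same contrast differed by 0.39 in LMNB1 libraries (exact permutation p of 0.2, stages overlapping) and by 0.27 in IGG libraries (exact permutation p of 0.1). Both features were then crossed, 4 classes by 4. Within the least GC-rich class the median change went from -0.03 in the class with the least LMNB1 to -0.50 in that with the most, and within the most GC-rich class it went from 0.55 to -0.35. The value of -0.03 was 0.14 with division by the mean over genes, and the other 3 kept their sign. Across genes Spearman's rho of the LAP2B change was -0.68 with naive LMNB1 per bin and 0.45 with GC content (70312 genes each, which share libraries and, where they overlap or lie side by side, bins).

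Among protein-coding genes of at least 10 kb, above the median gene in coverage, the 10 largest rises and 10 largest falls were taken, with no overlap between stages and at most 1 gene per 1 Mb. Of these 20, Kdelr3, which encodes a receptor that returns proteins to the endoplasmic reticulum, rose most, and Serpinc1, which encodes the clotting inhibitor antithrombin, fell most. Their promoter windows are shown with those of Lactbl1, the second rise, and Xiap, which encodes an inhibitor of caspases and was the second fall, because the leading genes differ in how many CG dinucleotides lie at their start. Each window is GRCm39 sequence, 250 bases before and 50 from the gene start in the GENCODE annotation, on the + strand, with every CG in capitals. CG reads the same on both strands.
Kdelr3 (chr15:79400346-79400645): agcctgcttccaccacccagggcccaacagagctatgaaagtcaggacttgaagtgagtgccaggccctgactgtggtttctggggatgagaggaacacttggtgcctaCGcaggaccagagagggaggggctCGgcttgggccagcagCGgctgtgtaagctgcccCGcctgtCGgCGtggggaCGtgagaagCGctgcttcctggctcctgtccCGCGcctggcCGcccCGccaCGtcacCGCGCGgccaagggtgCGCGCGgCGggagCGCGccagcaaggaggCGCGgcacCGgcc
Lactbl1 (chr4:136349682-136349981): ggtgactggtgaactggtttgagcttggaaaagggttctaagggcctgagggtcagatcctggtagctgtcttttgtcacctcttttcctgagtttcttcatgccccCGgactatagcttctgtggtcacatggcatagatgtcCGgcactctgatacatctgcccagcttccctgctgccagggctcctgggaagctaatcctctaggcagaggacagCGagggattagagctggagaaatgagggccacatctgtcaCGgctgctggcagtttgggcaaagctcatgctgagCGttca
Serpinc1 (chr1:160805896-160806195): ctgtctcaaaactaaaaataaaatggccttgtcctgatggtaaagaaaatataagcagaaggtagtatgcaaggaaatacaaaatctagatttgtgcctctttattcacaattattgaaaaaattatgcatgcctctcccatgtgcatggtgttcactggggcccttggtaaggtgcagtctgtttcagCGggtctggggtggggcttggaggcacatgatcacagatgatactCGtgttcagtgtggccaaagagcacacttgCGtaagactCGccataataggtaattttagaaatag
Xiap (chrX:41148231-41148530): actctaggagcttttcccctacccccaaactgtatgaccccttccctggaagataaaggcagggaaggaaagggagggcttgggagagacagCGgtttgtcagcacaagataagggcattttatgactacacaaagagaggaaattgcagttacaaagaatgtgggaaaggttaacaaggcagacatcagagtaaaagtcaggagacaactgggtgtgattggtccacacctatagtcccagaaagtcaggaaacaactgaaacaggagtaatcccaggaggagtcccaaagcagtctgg
The Kdelr3 window holds 25 CG dinucleotides at 69% GC, that of Lactbl1 5 at 54%, that of Serpinc1 4 at 42% and that of Xiap 1 at 47.7%.

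Kdelr3 (chromosome 15, bases 79400596 to 79411940, + strand) had relative LAP2B values of 2.83, 2.58 and 2.98 in EpiLCs and 0.806, 0.818 and 1.23 in naive cells, where 1 is the median gene of a library. The log2 change was 1.46 (SE 0.18, limma adjusted p = 3.8e-08). Lactbl1 had 3.95, 4.23 and 4.25 against 1.61, 1.09 and 1.69, a change of 1.44 (SE 0.17). For both, every EpiLC library was above every naive library by a wide margin. Hpca, which encodes the neuronal calcium sensor hippocalcin, had 2.90, 2.86 and 4.61 against 1.51, 1.09 and 0.981, and Tjp3, for a tight junction protein, had 4.47, 5.49 and 6.07 against 2.46, 1.41 and 2.12. The other rises were Ddx39b, an RNA helicase of splicing and mRNA export (1.36), Pi16 (1.35), BC005624 (1.34), Cox5a, a subunit of cytochrome c oxidase (1.34), Sf1, which binds the intron branch point (1.32), and Cnnm3 (1.32). All 10 were in the 3 classes with the least naive LMNB1.

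Serpinc1 (chromosome 1, bases 160806146 to 160833433, + strand) had 3.87, 5.83 and 4.8 in EpiLCs and 13.3, 17.2 and 13.5 in naive cells, a fall to 0.334 of the naive value (log2 change -1.58, SE 0.13, limma adjusted p = 6.6e-13). Xiap had 4.57, 5.24 and 2.96 against 10.5, 12.1 and 10.2 (-1.37, SE 0.14). Both genes were also lower with the LMNB1 antibody, by -0.94 and -1.16, and changed by -0.26 and -0.09 with IGG, neither called. Spaca6, needed for sperm and egg to fuse, had 4.52, 4.26 and 4.93 against 12.0, 11.4 and 12.3. Map2k6, a kinase that activates p38, had 30.4, 27.2 and 27.9 against 66.7, 76.1 and 57.2, and Cop1, a ubiquitin ligase, had 24.8, 21.4 and 20.2 against 48.4, 63.5 and 45.8. In each of these the stages lay far apart. The other falls were Or10ag54 (-1.33), Pramel13 (-1.31), Zfp1001 (-1.26), Bend5 (-1.22) and Glrx, a glutaredoxin (-1.21). Of the 10, Xiap was in the sixth class of naive LMNB1, Bend5 in the ninth and the other 8 in the class with the most. The calls of all 20 genes held without each library in turn.

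**Figure D2:**
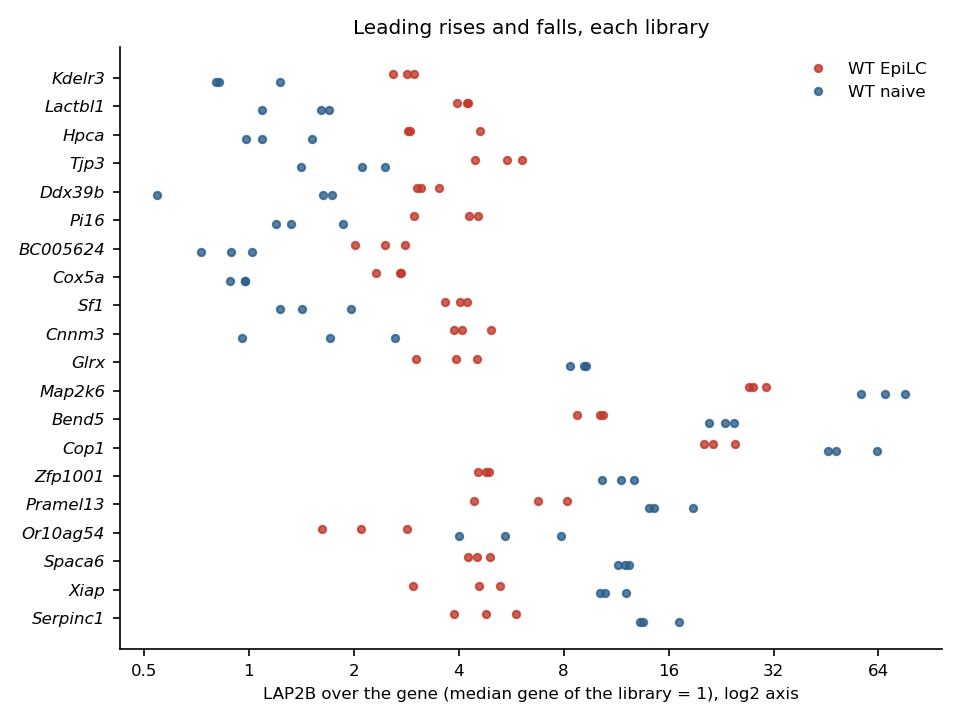
The 10 largest rises and 10 largest falls. Each point is the relative LAP2B value of 1 library on a log2 axis (1 is the library's median gene), with the 3 EpiLC and the 3 naive WT libraries in different colours. The stages do not overlap in any of the 20 genes, as the rule for choosing them required, and run from Kdelr3 (log2 change 1.46) to Serpinc1 (-1.58).

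CG content at the start of genes differed between genes that rose and genes that fell. Over 20848 protein-coding genes whose 300 base window could be read, the median number of CG dinucleotides was 13 in the 5815 genes that rose, 7 in the 4621 that fell, 7 in those not called and 8 in all. At least 10 were found in 61.0% of windows of genes that rose, 41.7% of those that fell and 46.8% of all. Of 1119 windows with no CG, 59 belonged to genes that rose (5.27%) and 307 to genes that fell (27.4%). Of 4595 windows with 20 or more these were 1698 (37.0%) and 901 (19.6%). Among all protein-coding genes 27.9% rose and 22.2% fell. The share that rose thus differed more with CG number than the share that fell, which stayed near that of all. The windows of Kdelr3 and Xiap above lie toward the ends of this range, and that of Lactbl1, a rising gene, holds fewer than the median of all windows. GC content of the gene body and of the window go together, and their parts in this difference were not told apart.

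Genes were next grouped by family, and for each family the number that rose or fell is to be read against 15.1% and 17.3% over all genes. Most families, and the lists further below, hold mainly protein-coding genes, of which 27.9% rose and 22.2% fell. For them these shares are the closer match. Of all genes of at least 300 kb 65.1% fell. Members of a family often lie side by side and share bins, and members with near-identical sequence may share reads, so their values are not independent of each other. Among the families with more falls than rises, the Speer genes, expressed in spermatids, had 0 higher and 15 lower of 17 tested, with a median change of -0.93. Their median relative value was 1.73, 1.43 and 1.46 in EpiLCs and 2.96, 3.02 and 2.83 in naive cells. Speer1n, with the largest fall, had 0.933, 1.54 and 1.21 against 3.17, 3.05 and 3.29 (log2 change -1.31). The Pramel genes, expressed in germ cells and early embryos, had 0 higher and 32 lower of 57, with a median of -0.62, and without naive replicate 2 the count was 19. Pramel7, which is known to act in the inner cell mass, had 2.00, 1.98 and 1.52 against 5.07, 6.02 and 5.17 (-1.51, SE 0.18, limma adjusted p = 1.6e-08). It also fell with LMNB1 (-1.34) and with IGG (-1.16). No EpiLC library of either named gene reached a naive one.

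The serpin A and B genes, protease inhibitors that lie in clusters, had 0 higher and 33 lower of 51, with a median of -0.59. Serpina3i had 1.92, 1.31 and 1.45 against 5.78, 5.93 and 4.25, a log2 change of -1.69 (SE 0.20). Serpina9 stood apart from it at 3.75, 4.69 and 4.23 against 3.75, 4.66 and 4.10 (0.02, not called). The killer cell lectin-like receptors of natural killer cells had 1 higher and 21 lower of 27, with a median of -0.59, and the Skint genes, which act in skin T cell selection, had 0 and 8 of 11, with a median of -0.52. Without naive replicate 2 the serpins had 21 lower and the lectin-like receptors 10, and without EpiLC replicate 3 the latter had 12. Clec12b, a C-type lectin gene that also lies on chromosome 6, had 3.05, 2.63 and 2.38 against 5.51, 6.55 and 5.27 (-1.07).

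The receptor genes of smell were taken as 4 families. Class II olfactory receptors had 8 higher and 251 lower of 1016, with a median change of -0.40, and class I had 0 and 42 of 132, with a median of -0.50. The shares lower were 24.7% and 31.8%, the first of them near the 22.2% of protein-coding genes. The share of class II higher was 0.79%, against 27.9%. The median class II gene had 1.67, 1.48 and 1.34 in EpiLCs and 1.89, 2.34 and 1.81 in naive cells, so that the stages did not overlap but lay closer than those of the Speer genes. Type 2 vomeronasal receptors had 0 higher and 71 lower of 111 (median -0.46). Type 1 receptors had 0 and 23 of 149 (median -0.28), a share of 15.4% lower that is under the 22.2% of protein-coding genes and the 17.3% of all genes. The medians of their libraries overlapped between the stages. Or52e4 had 1.68, 2.35 and 1.57 against 3.94, 4.91 and 3.44 (-1.09), and Vmn2r85 had 5.37, 4.32 and 4.30 against 9.69, 10.5 and 8.63 (-1.03). Or4d2b was an exception, at 1.35, 1.77 and 2.04 against 0.972, 0.841 and 0.846 (0.85). Many of these genes cover few bins, and the counts moved with single libraries. Without naive replicate 2 the lower counts were 83 for class II, 13 for class I, 34 for type 2 and 5 for type 1. They were 120, 23, 40 and 5 without EpiLC replicate 3, and 165 for class II, 24 for class I and 12 for type 1 without EpiLC replicate 2.

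Immunoglobulin V segments, which are joined in B cells to make antibodies, had 1 higher and 119 lower of 324, with a median of -0.56. Their median relative value was 0.517, 0.440 and 0.429 in EpiLCs and 0.694, 0.864 and 0.692 in naive cells. The lower count was 59 without naive replicate 2. T cell receptor V segments, short like them, had 0 and 15 of 157 (median -0.34), 9.55% lower and so also under the share of all genes, and 7 lower without naive replicate 2 or 8 without EpiLC replicate 3. Mage genes, most of them on the X chromosome, had 0 and 12 of 26 (median -0.44), and 7 lower without either of those libraries. GABA-A receptor subunits, most of them long neuronal genes, had 3 and 12 of 19 (median -0.41), and 1 higher without EpiLC replicate 2 or naive replicate 2. The median of each of these 13 families, from Speer to the GABA-A receptors, also stayed below 0 when libraries were divided by the mean over genes, from -0.72 for Speer to -0.07 for type 1 vomeronasal receptors. That was not so for the Ms4a genes (-0.18 and 0.03) or the Cyp2, Cyp3 and Cyp4 genes of drug and steroid metabolism (-0.10 and 0.11).

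The counts of these families depended on the scale more than their medians did. With division by the mean over genes the lower counts were 13 for Speer, 19 for Pramel, 17 for the serpins, 9 for the lectin-like receptors, 6 for Skint and 7 each for Mage and the GABA-A receptors. They were 83 for class II and 14 for class I olfactory receptors (with 24 and 0 higher), 26 and 4 for type 2 and type 1 vomeronasal receptors, 65 for immunoglobulin and 5 for T cell receptor V segments. On the spike-in scale the lower counts were 3 for Speer, 10 for Pramel, 5 for the serpins, 4 for Mage, 32 and 7 for class II and class I olfactory receptors, 3 and 1 for type 2 and type 1 vomeronasal receptors, and 34 and 2 for immunoglobulin and T cell receptor V segments. Limma called 0 lower there for the lectin-like receptors, Skint and the GABA-A receptors, with 9, 3 and 3 at an unadjusted p under 0.05, and edgeR also called 0 of each.

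**Figure D3:**
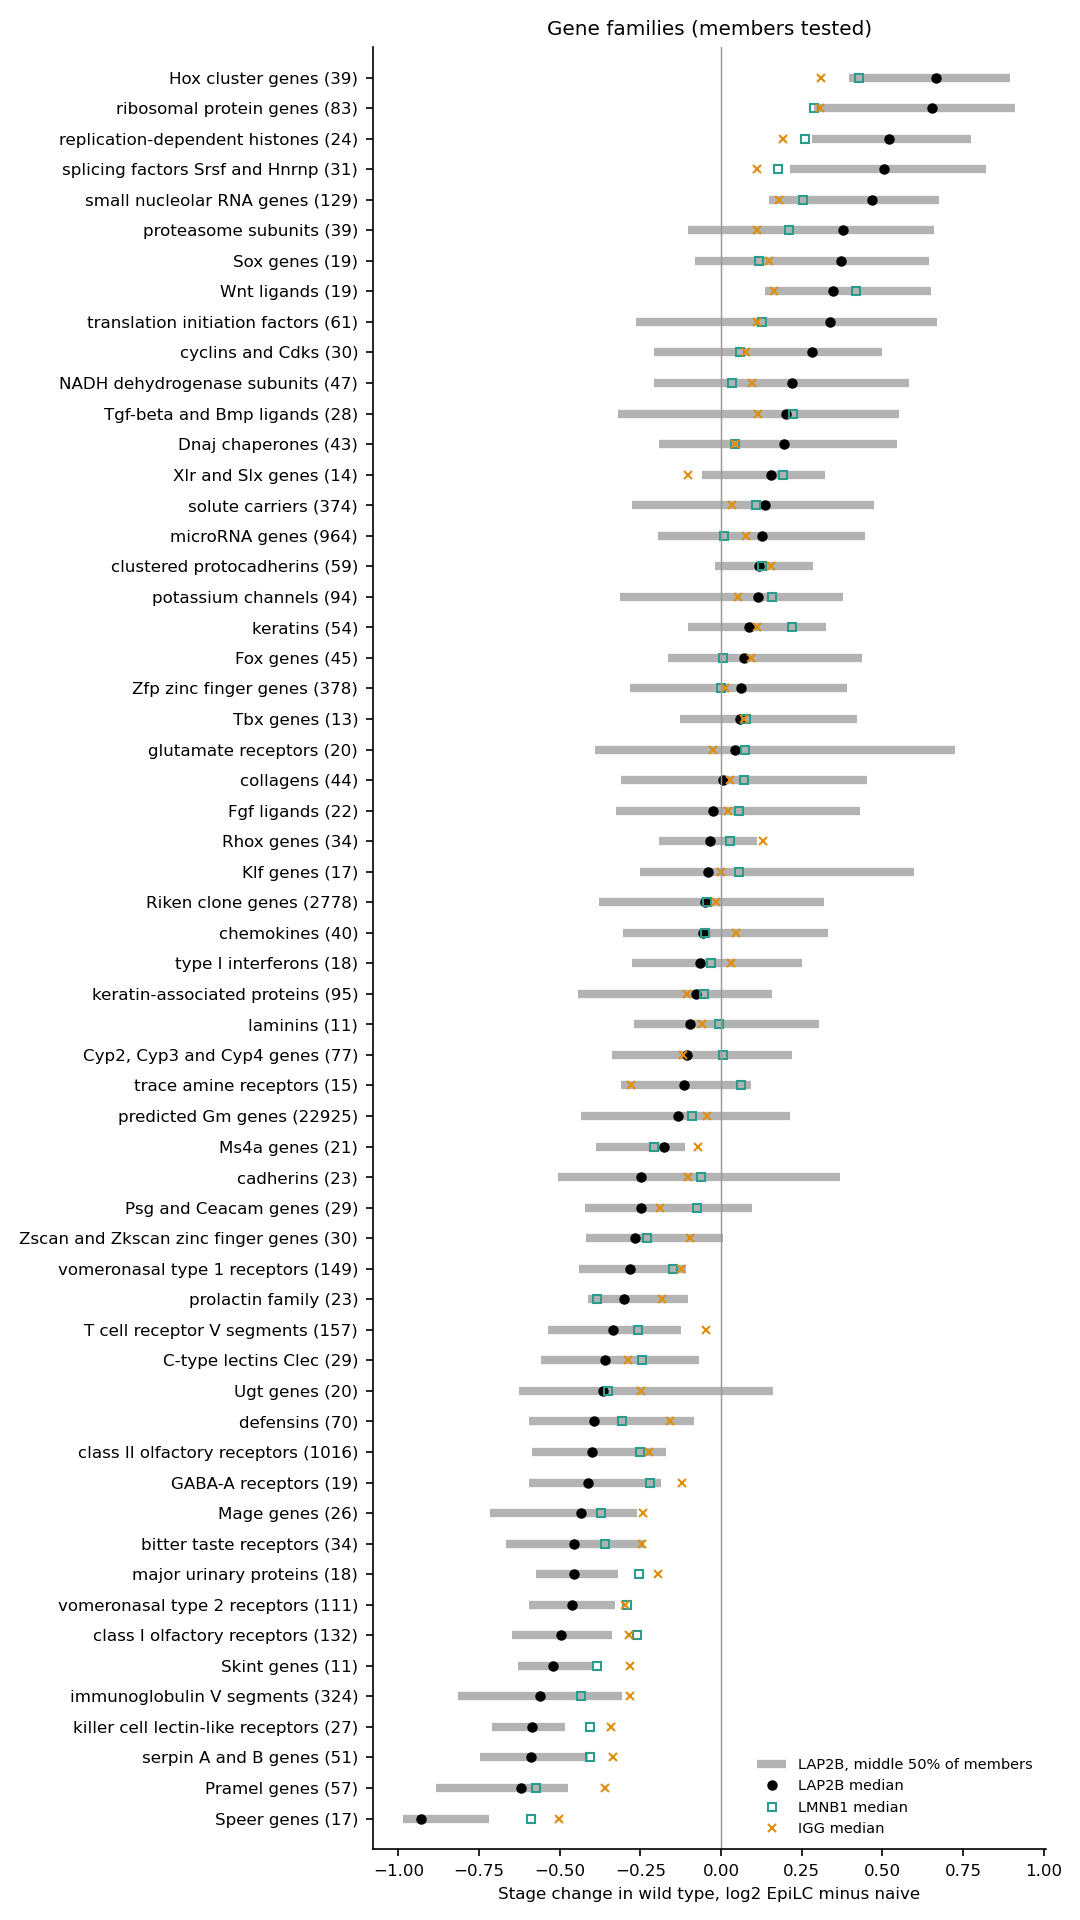
Change of LAP2B by gene family. The y axis lists families with at least 10 tested members and the x axis gives the log2 change, EpiLC minus naive, with a black point for the LAP2B median, a grey bar for the middle 50% of members, an open square for the LMNB1 median and a cross for the IGG median. LAP2B medians run from -0.93 in Speer genes to 0.67 in Hox genes, and in both the LMNB1 (-0.59 and 0.43) and IGG medians (-0.50 and 0.31) lie between LAP2B and 0.

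Among the families with more rises than falls, the Hox genes, which pattern the body axis and lie in clusters, had 26 higher and 0 lower of 39, with a median change of 0.67. The median Hox gene had 1.00, 1.05 and 1.18 in EpiLCs and 0.722, 0.727 and 0.827 in naive cells. Hoxb1 had 1.12, 0.976 and 1.38 against 0.542, 0.5 and 0.231 (log2 change 1.26), and Hoxc8, at the other end, had 0.733, 0.655 and 0.821 against 0.694, 0.727 and 1.12 (-0.15, and 0.04 with division by the mean, not called). Without naive replicate 2 the number of Hox genes higher was 15. The ribosomal protein genes, dispersed over the genome, had 44 higher and 0 lower of 83, with a median of 0.65. Their median was 1.13, 1.07 and 1.18 against 0.736, 0.591 and 0.788. Rpl23 had 1.27, 1.17 and 2.23 against 0.375, 0.364 and 0.654 (1.49), and Rpl34 had 1.13, 0.810 and 1.07 against 1.28, 1.14 and 1.67 (-0.39, not called). The EpiLC medians of both families were above every naive median.

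Other families of widely expressed genes also had more rises than falls, to differing extents. The Srsf and Hnrnp splicing factors had 17 higher and 1 lower of 31 (median 0.50), the proteasome subunits 17 and 4 of 39 (0.38), the translation initiation factors 28 and 11 of 61 (0.34) and the cyclins and Cdks 10 and 5 of 30 (0.28). The shares higher were 54.8%, 43.6%, 45.9% and 33.3%, against 27.9% of protein-coding genes. For the cyclins and Cdks, with 16.7% lower against 22.2%, both shares were thus near those of protein-coding genes. Psmb9, an immunoproteasome subunit, had 1.77, 2.17 and 2.39 in EpiLCs against 0.431, 0.455 and 0.654 in naive cells, a log2 change of 1.81 (SE 0.24, limma adjusted p = 1.1e-07). In the same family Psmd14 had 18.1, 17.9 and 15.0 against 30.6, 36.8 and 30.8 (-0.94), and among the initiation factors Eif3g rose (1.23) while Eif3h fell (-0.93). The lower count of the initiation factors was 4 without EpiLC replicate 3, 5 without naive replicate 2 and 7 without naive replicate 3, that of the proteasome subunits 2 without EpiLC replicate 3, and that of the cyclins and Cdks 3 without naive replicate 2. On the spike-in scale the higher and lower counts were 14 and 0 for the splicing factors, 12 and 1 for the proteasome, 17 and 1 for the initiation factors and 4 and 1 for the cyclins and Cdks. Of 68 replication-dependent histone genes 24 were tested, and 8 rose (33.3%, near the 27.9% of protein-coding genes) and 0 fell (median 0.52). Small nucleolar RNA genes picked by their symbols had 28 and 0 of 129 (median 0.47). The whole small nucleolar RNA biotype went the other way, with 54 higher and 97 lower of 1116. Its median was -0.13, and 0.02 with division by the mean over genes. Without naive replicate 2 the higher counts were 17 for the initiation factors, 4 for the histones and 13 for the small nucleolar RNA genes picked by symbol. They were 4 and 16 for the last pair without EpiLC replicate 2, and 5 for the histones without EpiLC replicate 3.

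Families of developmental signals and factors were mixed. The Wnt ligands had 11 higher and 2 lower of 19 (median 0.35), with Wnt1 at 1.67, 1.75 and 1.93 against 0.944, 0.455 and 0.904 (1.14) and Wnt2b at 4.2, 3.49 and 4.34 against 5.44, 5.86 and 5.35 (-0.46). The Sox factors had 7 and 2 of 19 (median 0.37), led by Sox8 (1.28). The Fgf ligands had 5 and 6 of 22, the collagens 15 and 12 of 44, the potassium channels 23 and 19 of 94 and the Zfp zinc finger genes 100 and 79 of 378 (medians from -0.02 to 0.11). With division by the mean over genes these were 7 and 4, 19 and 5, 41 and 12, and 147 and 34, and on the spike-in scale 5 and 1, 11 and 0, 17 and 5, and 52 and 6, so the balance rests on the scale. The medians of the Fgf ligands (-0.02 and 0.17) were of either sign with the divisor. Fgf10, on the falling side, had 41.9, 33.7 and 31.0 against 58.8, 77.0 and 56.8 (-0.85), and also fell with LMNB1 (-0.68) and IGG (-0.66). For the clustered protocadherins, cell surface proteins of neurons, 18 rose and 0 fell of 59 (median 0.12), but the number was 2 without naive replicate 2, 4 without EpiLC replicate 3 and 8 without EpiLC replicate 2. Limma called 1 protocadherin higher on the spike-in scale and edgeR called 0 (13 at an unadjusted p under 0.05 in limma). The Zfp genes had 61 higher without naive replicate 2.

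Pluripotency genes did not move as a group. Of 22 naive pluripotency factors 4 rose and 5 fell, with a median change of 0.01 (0.23 with division by the mean over genes), against -0.06 for all genes. Tet2, an enzyme that oxidises methylated cytosine, had 23.3, 19.6 and 20.2 in EpiLCs and 42.2, 51.0 and 40.1 in naive cells, a log2 change of -1.07 (SE 0.11, limma adjusted p = 5.3e-10). Lifr, the LIF receptor, had 16.4, 16.6 and 18.3 against 30.3, 30.4 and 29.2 (-0.81), and Nr5a2 (-0.69), Spic (-0.65) and Manba (-0.49) also fell. The stages were well apart for Tet2 and Lifr. Gbx2 had 1.03, 1.2 and 1.2 against 0.639, 0.409 and 0.654 (0.89), Klf2 changed by 0.70, Stat3 by 0.53 and Esrrb by 0.29, each called higher. The call of Klf2 and that of Esrrb held in 4 of 6 fits with a library left out, and 2 of the 4 rises were left without EpiLC replicate 2 or without naive replicate 2. Nanog had 3.90, 3.19 and 3.45 against 3.96, 4.77 and 4.23 (-0.29, adjusted p = 0.13 by limma), and Zfp42, which encodes REX1, had 4.93, 5.12 and 4.18 against 4.6, 4.34 and 5.31 (-0.00, and 0.21 with division by the mean). The libraries of Zfp42 overlapped and those of Nanog did not. Klf4 (0.32) and Dppa3 (-0.18, and 0.03 with division by the mean) were not called.

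Of 21 primed epiblast markers 6 rose and 2 fell, with a median of 0.21. Pou3f1, which encodes OCT6, had 1.30, 0.917 and 1.77 in EpiLCs and 0.389, 0.523 and 0.423 in naive cells, a log2 change of 1.31 (SE 0.25, limma adjusted p = 4.9e-05). Fgf8 had 1.62, 1.64 and 2.09 against 1.00, 0.864 and 0.346 (1.23), Tead2 rose by 0.81 and Etv4 by 0.61. Dnmt3a (0.55) and Zic2 (0.55) rose, and Lin28b (-0.60) and Cdh2 (-0.47) fell. Otx2, Fgf5 and Dnmt3b, which the naming rule always included, were not called. Otx2 had 2.92, 4.14 and 2.73 against 3.5, 2.84 and 3.12 (0.03), Fgf5 had 5.90, 5.94 and 6.43 against 5.24, 6.43 and 6.23 (0.03), and Dnmt3b changed by 0.09. The libraries of all 3 overlapped. Of 11 factors shared by both stages 5 rose and 2 fell (median 0.22). Sox2 had 0.633, 0.429 and 0.839 against 0.167, 0.136 and 0.346 (1.16), Pou5f1, which encodes OCT4, had 1.62, 1.68 and 2.11 against 1.32, 0.5 and 1.21 (0.84), and Lin28a (0.86) and Sall4 (0.56) also rose, with no overlap for the first pair. The fifth member to rise, Rex1bd (1.11), is not itself known as a pluripotency factor. Dppa4 (-0.64) and Dppa2 (-0.61), neighbours on chromosome 16, fell.

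The mesoderm and gastrulation genes had 9 higher and 0 lower of 24, with a median of 0.36, and 5 higher without EpiLC replicate 3. Nodal, the signal that sustains the primed state and forms the streak, had 1.87, 2.29 and 2.16 against 1.40, 0.432 and 0.885 (log2 change 1.22, SE 0.21), and Foxf1 had 1.02, 1.05 and 1.71 against 0.417, 0.364 and 0.577 (1.24). Wnt6 rose by 1.05 and Mesp2 by 0.97, the latter with overlapping libraries and a call that held in 4 of 6 fits with a library left out. T, the brachyury gene, had 1.03, 1.69 and 1.32 against 1.47, 1.36 and 1.63 (-0.15, and 0.05 with division by the mean, not called), and Wnt5a (0.01) was not called. Neuroectoderm genes had 6 higher and 3 lower of 20 (median 0.07), among them Tubb3 (0.87), and 1 lower without EpiLC replicate 2 or naive replicate 2. Primitive endoderm regulators had 6 and 6 of 20 (median -0.04, and 0.17 with division by the mean). Sox17 had 2.32, 1.82 and 2.89 against 4.44, 5.59 and 3.23 (-0.87) and Foxa2 had 1.5, 1.01 and 1.82 against 3.00, 2.82 and 2.65 (-0.94), whereas Gata4 (0.65) and Pdgfra (0.55) rose and Gata6 (0.08) was not called. Trophoblast genes had 2 higher and 0 lower of 16 (median -0.04, and 0.17 with division by the mean), with 1 higher without EpiLC replicate 2 or 3 and 0 without naive replicate 2.

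**Figure D4:**
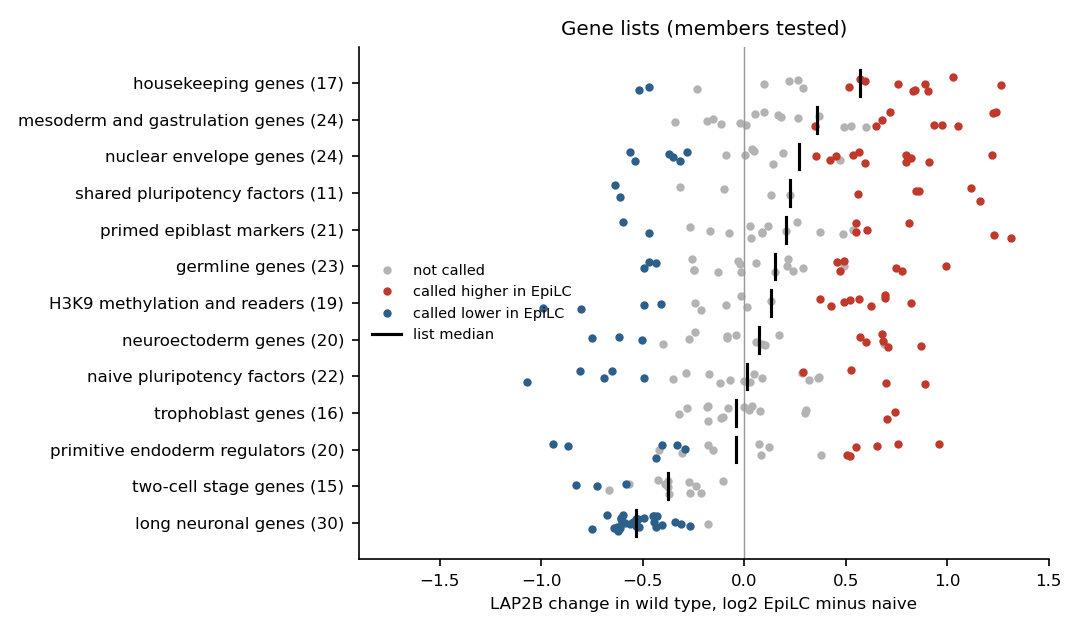
Change of LAP2B in 13 gene lists. Each point is 1 tested gene, coloured by whether it rose, fell or was not called, the x axis is the log2 change, EpiLC minus naive, and a bar marks the median of each list. The long neuronal genes lie almost wholly below 0 (median -0.53), the housekeeping genes mostly above it (0.57), and the naive and primed lists lie on both sides (0.01 and 0.21).

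Long neuronal genes, many of them cell adhesion genes that lie in lamina-associated domains of many cell types, had 0 higher and 29 lower of 30, with a median of -0.53. Pcdh9 had 195, 170 and 150 in EpiLCs and 274, 338 and 257 in naive cells (log2 change -0.75, SE 0.11), and Auts2 had 278, 245 and 247 against 386, 439 and 366 (-0.63, SE 0.08, limma adjusted p = 9.2e-08). Robo2 (-0.68) and Nrg3 (-0.64) were next, Cdh12 (-0.18, and 0.04 with division by the mean) was the member not called, and between 26 and 30 fell when any library was left out. Under division by the mean 25 fell. On the spike-in scale limma called 0 of the 30, with 3 lower at an unadjusted p under 0.05, edgeR called 0 lower, and the median was -0.36. Housekeeping genes had 10 higher and 2 lower of 17, with a median of 0.57. Tuba1b had 1.00, 1.13 and 1.70 against 0.361, 0.750 and 0.308 (1.27), Actb had 1.82, 1.32 and 1.66 against 0.694, 0.682 and 1.06 (0.89), and Ppia (1.03), Eef2 (0.90) and Gapdh (0.84) also rose. Sdha (-0.52) and Pgk1 (-0.47), the latter on the X chromosome, fell, and only 1 of the 2 was called without EpiLC replicate 2, EpiLC replicate 3, naive replicate 1 or naive replicate 2.

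The genes of the nuclear envelope itself, the home of LAP2, had 11 higher and 6 lower of 24 (median 0.27), with 3 lower without EpiLC replicate 3 or naive replicate 2. Tmpo, which encodes LAP2, had 6.92, 7.39 and 6.20 against 9.90, 11.7 and 8.98 (log2 change -0.56, SE 0.12, limma adjusted p = 0.00019). Lemd2, another LEM domain protein, had 2.37, 4.06 and 5.43 against 1.89, 0.955 and 1.98 (1.22), and Tmem43 (0.82), Prr14 (0.80) and Banf1 (0.91), whose product binds LEM proteins and DNA, rose too. Lmnb1 fell (-0.35) and Lmnb2 rose (0.57, with overlapping libraries), each held in 4 of 6 fits with a library left out. Lmna had 8.25, 9.81 and 9.36 against 9.56, 4.16 and 7.04 (0.47, not called) and Lbr changed by 0.14, not called. These values give LAP2B coverage over the genes, not the amount of the proteins. Of 19 genes for H3K9 methylation and its readers 9 rose and 4 fell (median 0.13). Kdm4c, a demethylase, had 40.4, 36.9 and 33.2 against 70.0, 87.6 and 63.9 (-0.99), Suv39h2, a methyltransferase, fell by 0.80 on the log2 scale, and Cbx1 (0.82) and Uhrf1 (0.69) rose.

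Germline genes had 6 higher and 3 lower of 23 (median 0.15), with 0 lower without EpiLC replicate 3. Dpep3 (0.99), Tdrd1 (0.78) and Hormad1 (0.75) rose, and Stag3, a meiotic cohesin, had 6.07, 6.65 and 4.71 against 8.33, 8.41 and 7.71 (-0.49). Of 15 genes of the 2-cell stage 0 rose and 3 fell, with a median of -0.38. Usp17la had 2.13, 1.55 and 2.00 against 3.31, 3.52 and 2.79 (-0.73), and Usp17lb (-0.83) and Tcstv4 (-0.59) fell as well. All 15 fitted changes were below 0, from -0.83 to -0.10, but with division by the mean over genes the median was -0.18, Zscan4a turned to 0.09 and limma called 0 (3 lower at an unadjusted p under 0.05), and 5 were lower without naive replicate 3. The Usp17l, Tcstv and Zscan4 genes lie in clusters of near-identical copies.

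The split of higher and lower calls in the lists depended on the scale. When libraries were divided by the mean over genes, limma gave 7 higher and 4 lower for the naive factors, 10 and 2 for the primed markers, 6 and 1 for the shared factors, 7 and 2 for the primitive endoderm regulators, 15 and 2 for the nuclear envelope and 10 and 2 for H3K9 methylation. The lower count was then 0 for neuroectoderm (7 higher), germline (12 higher) and housekeeping genes (12 higher), with 3, 2 and 1 lower at an unadjusted p under 0.05. The naive factors had 3 and 2 on the spike-in scale in limma, and H3K9 methylation 5 and 1. The higher counts there were 5 for the primed markers, 5 for the shared factors, 6 for primitive endoderm, 4 for neuroectoderm, 4 for germline, 8 for nuclear envelope and 9 for housekeeping genes. Each of these had 0 lower by limma and by edgeR, and at an unadjusted p under 0.05 in limma primitive endoderm had 2 lower and the others 0.

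By biotype, protein-coding genes had 5815 higher and 4622 lower of 20852 (median 0.04) and long noncoding RNA genes 4094 and 5582 of 31511 (median -0.05). Processed pseudogenes had 211 and 729 of 7337 (-0.18) and unprocessed pseudogenes 31 and 176 of 1245 (-0.28), and most of these short features were not called. With division by the mean over genes the protein-coding genes had 8365 higher and 2227 lower (median 0.25), and on the spike-in scale 3880 and 358. With the same division the long noncoding RNA genes had 6947 higher and 2292 lower (median 0.15), so that both the balance and the sign turned, and the pseudogenes had 349 and 306 (-0.01) and 55 and 57 (-0.09). Without naive replicate 2 the counts were 2457 and 3343 for long noncoding RNA genes, 129 and 345 for processed and 18 and 71 for unprocessed pseudogenes. The pseudogene counts were 132 and 428, and 19 and 92, without EpiLC replicate 3, and 137 and 515, and 17 and 112, without EpiLC replicate 2. Coverage summed over the gene grows with its length, and so does the precision of its change. Genes under 3 kb had 2050 higher and 2635 lower of 28901 (median -0.07), genes of 100 to 300 kb 461 and 1430 of 2897 (-0.25) and genes of at least 300 kb 53 and 416 of 639 (-0.35). With division by the mean these medians were 0.09, -0.03 and -0.13, and the counts were then 3243 higher and 1143 lower, 818 and 756, and 117 and 244. They were 1805 and 624, 192 and 86, and 24 and 7 on the spike-in scale. The counts under 3 kb were 1226 and 1333 without naive replicate 2 and 1301 and 1671 without EpiLC replicate 3.

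By chromosome, medians ran from 0.17 on chromosome 11, with 1131 higher and 528 lower of 4290, to -0.41 on Y, with 5 and 183 of 912. Chromosomes 19 (0.14) and 15 (0.13) were next to 11, and X (-0.24, 57 and 480 of 2124) and chromosome 1 (-0.18) next to Y. Division by the mean over genes gave -0.23 for Y, -0.05 for X and 0.01 for chromosome 1, whose sign thus turned. The counts were then 11 higher and 68 lower on Y, 140 and 237 on X and 1579 and 236 on chromosome 11. On the spike-in scale they were 3 and 36, 41 and 84, and 841 and 48. On Y 109 genes fell and 2 rose without naive replicate 2, and 110 and 3 without EpiLC replicate 3, and on X 301 fell without naive replicate 2. On Y the LMNB1 median was -0.42 and the IGG median -0.19. The mixed karyotype touches chromosomes 6, 8 and Y, and a change in the share of cells with each copy number cannot be told apart from a change in contact there. Without chromosomes 6, 8, X and Y 9409 genes were higher and 10246 lower of 59736. Of the calls made over all chromosomes, 9385 and 10168 lay outside these 4, and 6147 and 6241 without naive replicate 2.

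For each TE family the mean over its copies was tested, divided by the library's median family. Of 1202 families with at least 10 copies 172 were higher (14.3%) and 160 lower (13.3%), and most changes were small. SINEs, short elements that sit in gene-dense DNA, had 32 higher and 0 lower of 34 families, with a median of 0.13. The 3 EpiLC libraries lay above the 3 naive libraries in all 34 SINE families. Over all 1202 families they lay wholly above in 237 and wholly below in 238. For the SINEs, the sign of the change depends on the divisor, as given below. With the 6 WT libraries alone 3 SINE families were higher, and with the median over copies 5 (33 and 28 at an unadjusted p under 0.05 in limma). All 5 families of B2 and B3 rose, as did 11 of 12 of B1. B2_Mm1a, with 18416 copies, had 0.895, 0.974 and 0.939 in EpiLCs and 0.761, 0.705 and 0.804 in naive cells (log2 change 0.28, limma adjusted p = 0.00043). The Lx families of LINE-1 had 0 higher and 18 lower of 21 (median -0.12), while the old L1M families had 34 and 1 of 83 (0.05). Lx3A had 1.31, 1.19 and 1.22 against 1.39, 1.49 and 1.36 (-0.18). With the 6 WT libraries alone limma called 0 Lx families (18 lower at an unadjusted p under 0.05) and 3 of the old L1M families higher, and Lx3A had an adjusted p of 0.072. With the median over copies it called 0 of either (13 lower and 7 higher at an unadjusted p under 0.05). The L1Md families had 0 and 8 of 25 (0 called by limma with the 6 WT libraries or the median over copies, with 9 and 16 lower at an unadjusted p under 0.05), and their youngest members showed no call, L1MdA_I at 4.08, 3.56 and 4.2 against 3.86, 3.62 and 4.05 (0.03) and L1MdTf_I at 4.30, 3.85 and 4.66 against 3.97, 3.71 and 4.22 (0.10). Median changes with LMNB1 and IGG were -0.062 and -0.105 for Lx, against -0.123 with LAP2B. For L1Md they were -0.012 and -0.071 against -0.065, so IGG fell about as much as LAP2B in both groups. For SINEs they were 0.060 and 0.045 against 0.127, and for old L1M 0.013 and 0.004 against 0.052. The part of the IGG pattern in these changes was not tested.

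The largest falls were in LTR elements of the ERVK group, with 20 higher and 73 lower of 278. With the 6 WT libraries alone these were 3 and 37, and with the median over copies 0 and 11. RLTR13B2 had 1.64, 1.51 and 1.56 in EpiLCs and 2.44, 2.29 and 2.46 in naive cells (log2 change -0.58, SE 0.07, limma adjusted p = 9.0e-05). RLTR9D, whose copies are known as enhancers in mESCs, had 1.41, 1.27 and 1.37 against 2.01, 1.88 and 1.99 (-0.51, SE 0.05). RLTR13D6 (-0.47), RLTR13B1 (-0.42) and RLTR9E (-0.38) were alike, and the stages were far apart in each of the 5. In all, 14 of 23 RLTR13 families and 7 of 13 RLTR9 families fell, and 1 and 0 rose. With the 6 WT libraries alone 14 and 4 fell, and with the median over copies 6 and 3. RLTR13B2 and RLTR9D changed by -0.45 and -0.39 with LMNB1 and by -0.40 and -0.27 with IGG. MERVL-int (0.07), the element of the 2-cell stage, and IAPEz-int (0.24, limma adjusted p = 0.078) were not called. Of the repeats of the centromeric region, GSAT_MM, the major satellite, had 1270, 1396 and 1516 against 759.9, 633.3 and 1006 over its 51 annotated copies (0.82, SE 0.21). Its LMNB1 and IGG changes were 0.88 and 0.34, the LAP2B call held in 5 of 6 fits with a library left out, and where its reads come from was not tested. SYNREP_MM changed by 0.57 (held in 2 of 6).

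These TE results rest on the scale. Divided by the mean over families, which the satellite families dominate, 1 family was higher and 1164 lower (96.9% of families called), and the medians were -0.21 for SINEs and -0.34 for all families. The SINE median stood above that of all families and RLTR13B2 (-0.94) and RLTR9D (-0.86) below it under both, and the sign of the SINE change was not kept. With the median over copies in place of the mean 10 families were higher and 13 lower, and 5 of the higher ones were SINEs. On the spike-in scale limma called 0 families, with 12 at an unadjusted p under 0.05. Without EpiLC replicate 2, naive replicate 1 or naive replicate 2 the total of 332 became 113, 221 and 143. With LMNB1 1 family was higher and 10 lower (0.0832% and 0.832%), and with IGG 1 and 2 (0.0832% and 0.166%).

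**Figure D5:**
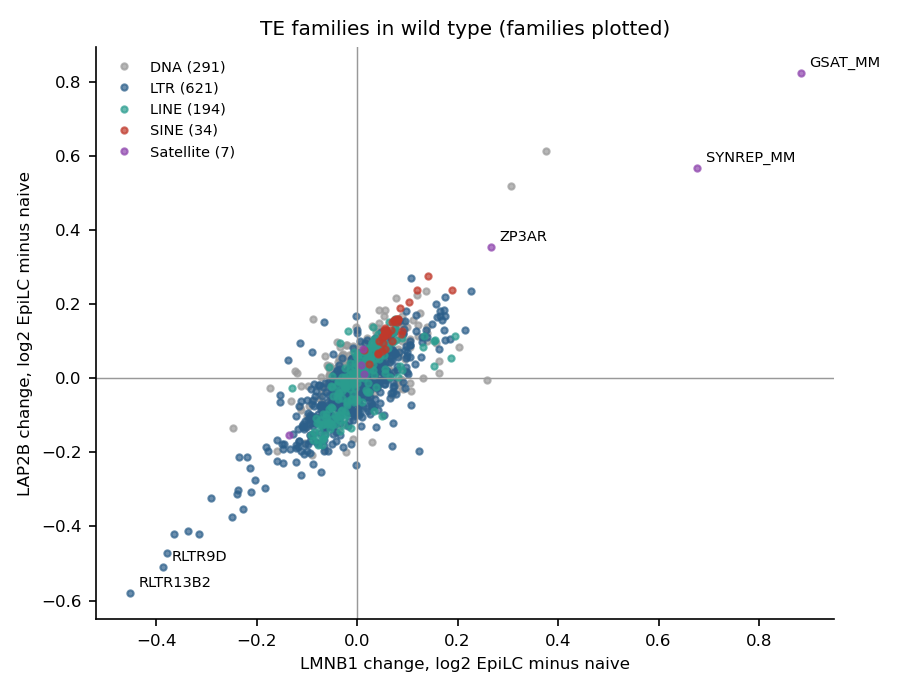
Change of LAP2B in TE families. Each point is a WT family of at least 10 copies, coloured by class, with its LMNB1 log2 change on the x axis and its LAP2B log2 change on the y axis, both EpiLC minus naive and relative to the library's median family. SINEs lie above 0 on the y axis (median 0.13), RLTR13B2 (-0.58 with LAP2B, -0.45 with LMNB1) and RLTR9D lie low on both, and GSAT_MM (0.82 and 0.88) lies high on both.

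The LAP2B change was set beside those of the other antibodies in the same cells, each tested in its own table. With LMNB1 4461 genes were higher (6.34%) and 5056 lower (7.18%), and with IGG 54 (0.0767%) and 300 (0.426%). Division by the mean over genes made these 6953 and 2475 with LMNB1 and 115 and 204 with IGG. Of 10437 genes higher with LAP2B and tested with both, 3455 were also higher with LMNB1, which is 33.1% of the LAP2B calls and 77.5% of the LMNB1 calls, and 2 were lower. Of 12177 genes lower with LAP2B 3979 were also lower with LMNB1, 32.7% and 79.1%, and 3 were higher. The LMNB1 change had the sign of the LAP2B change at 95.3% of the first group and 96.8% of the second. Median LMNB1 changes were 0.48 and -0.39 where LAP2B had 0.69 and -0.63. The LMNB1 counts rest on 3 libraries a stage without the mutants, and without EpiLC replicate 1, EpiLC replicate 3, naive replicate 1 or naive replicate 3 the total of 9517 became 1793, 3067, 5617 and 5749.

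IGG moved in the same direction to a smaller extent. Its median change was 0.17 over the genes higher with LAP2B and -0.21 over those lower, and its sign was that of LAP2B at 83.3% and 85.6%. It called 45 of 10591 and 282 of 12012 of them in the same direction, 83.3% and 94% of the IGG calls. Its total of 354 became 8, 18, 32 and 143 without EpiLC replicate 1, EpiLC replicate 2, naive replicate 1 and naive replicate 3. By family, the IGG median was -0.50 for Speer, -0.36 for Pramel and -0.28 for immunoglobulin V segments, and 0.31 for both Hox and ribosomal protein genes, in each of these closer to 0 than LAP2B. That was not so in every family. The clustered protocadherins had 0.15 with IGG against 0.12 with LAP2B, and the trace amine receptors -0.28 against -0.12. For the ribosomal protein genes the LMNB1 median (0.29) was no farther from 0 than that of IGG. The same held for class I olfactory receptors (-0.262 with LMNB1, -0.285 with IGG) and type 2 vomeronasal receptors (-0.291 and -0.299). For the long neuronal genes LMNB1 and IGG had -0.37 and -0.29 against -0.53. The part of the IGG pattern in the LAP2B change by gene and family was not tested. Across genes Spearman's rho of the LAP2B change was 0.72 with the LMNB1 change (68347 genes) and 0.48 with the IGG change (68814 genes), and the points share bins where genes lie side by side.

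Last, the WT change was tested against that of each mutant line, in the same limma fit, and the 3 tests share the WT libraries. It differed from the LBRKO change at 14047 genes (20%), from the TKO change at 6805 (9.67%) and from the QKO change at 32327 (45.9%). The WT change was the higher at 6740 (9.58%), 2680 (3.81%) and 14809 (21%) genes and the lower at 7307 (10.4%), 4125 (5.86%) and 17518 (24.9%). With division by the mean over genes it was higher at 9959, 6091 and 16800 and lower at 4480, 1159 and 13259. In the class of genes with the least naive LMNB1 the median change of WT was 0.46, and LBRKO had 0.17, TKO 0.38 and QKO -0.11. In the class with the most WT had -0.56, LBRKO -0.05, TKO -0.37 and QKO 0.22. The classes come from WT cells in every case. On the spike-in scale the log2 library mean was 2.71, 2.57 and 2.59 in QKO EpiLCs and 2.27, 1.96 and 2.21 in naive QKO cells. All of these lay below the lowest WT LAP2B library (3.26). The study reported a global reduction of LAP2β contacts in naive TKO and QKO cells. The relative scale hides such a loss, and the part of background cutting in the QKO values was not tested. Of the 10600 genes higher in WT, the change was larger in WT than in LBRKO at 4337, than in TKO at 1771 and than in QKO at 8122. Of the 12186 lower in WT, the fall was deeper in WT at 4753, 2234 and 8713, and the WT libraries that gave these genes their calls are also part of each difference. In QKO, where 20.1% of all genes were called lower and 21.6% higher, 5211 of the first group were called lower and 4576 of the second called higher, with medians of -0.42 and 0.26. The total for TKO became 4300 without WT EpiLC replicate 3 and 4400 without WT naive replicate 2.

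The medians of families differed between lines in value. In QKO the median change was -0.54 for ribosomal protein genes, -0.47 for Hox genes, 0.38 for Pramel genes, 0.44 for serpins A and B and 0.47 for class II olfactory receptors, each of the opposite sign to WT, while the clustered protocadherins (0.29) kept the sign of WT. The QKO median of the Mage genes (-0.02) lay close to 0, where the sign depends on the divisor. In LBRKO the median change was 0.40 for class I olfactory receptors, 0.27 for class II and 0.24 for type 2 vomeronasal receptors, all below 0 in WT. These medians were not tested. The change of Kdelr3 was 0.49 with LBRKO, 0.17 with TKO and -0.75 with QKO, and its WT change of 1.46 was larger by 0.97, 1.29 and 2.21. Serpinc1 changed by -0.73, -0.70 and -0.83, against -1.58 in WT. Both genes were chosen for the size of their WT change, so these differences are a description. Not all genes behaved so. Xiap changed by -0.97, -1.18 and -1.18 in the 3 lines, Pramel7 by -1.68, -2.14 and -1.68, and for neither was a difference from WT called. Tet2 changed by -0.86, -1.52 and -1.07, also with no difference called, at an adjusted p of 0.056 against TKO in limma. For these 3 genes the fall was thus present in the values of all 4 lines.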

How the data were processed

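LAP2B, LMNB1 and IGG CUT&RUN libraries were compared. The deposited gene and TE values are a coverage signal: the authors aligned reads to mm39 and sacCer3 (Bowtie2 2.3.5.1, SAMtools 1.10 and deepTools in the submitters' processing notes), kept properly paired reads at their primary alignment, removed duplicates and mitochondrial reads, took RPKM in 1 kb and 10 kb bins (10 kb for TEs) times a yeast spike-in factor, and assigned bins to GENCODE genes (blacklisted regions left out) or TEs (kept in). Which bins the deposited gene table uses, how they were joined to genes, and whether the TE values were taken in 10 kb bins could not be settled; the deposited signal of a gene tracks the sum over its 1 kb bins, without strand, so overlapping and antisense genes share it. The authors' table of modified z scores was not used.

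Of 78202 genes, the lowest 10% by mean over libraries was left out, leaving 70381, and 1202 of 1225 TE families had at least 10 copies. Values were divided by the library's median gene or family, 0.1 of the median was added as a pseudocount, and log2 values were tested in limma 3.58.1 (R 4.3.3; trend on, Benjamini-Hochberg). The LAP2B fit held 24 libraries in 8 groups, which share 1 estimate of the spread. Deposited values are whole multiples of 1 read in 100% of cases (tolerance 0.05 of a step); on those reads edgeR 4.0.16 quasi-likelihood tests called 9703 genes higher and 11398 lower. The fits were also run on simulated reads with few genes changed and each gene drawn by itself. These do not copy data in which many genes change and neighbours share bins, so nothing is concluded from them. Promoter windows and gene-body GC came from GRCm39, with gene starts and ends from GENCODE.

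Named genes were, by rule, the 10 largest rises and falls (coding, at least 10 kb, called, above the median gene, stages not overlapping, 1 Mb apart), up to 4 called members of each list with the largest changes and 17 always named, and the largest rise and fall of each described family; other list members given with a change were chosen after their values were seen. The members and lists were chosen with earlier results of these data known.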

Additional observations from a re-analysis of the deposited data

Results flagged for a closer look

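Differences between lines were tested as the WT change minus that of the mutant in limma. The WT change from naive to primed differed from that of LBRKO at 14047 genes, from that of TKO at 6805 and from that of QKO at 32327. Among the 196 genes chosen for naming these were 72, 54 and 146, and among the 20 largest rises and falls 14, 13 and 17. These genes were chosen for their WT change, and the same WT libraries enter each difference, so their counts are a description. The 3 exceptions against QKO among these 20 were Xiap, Pramel13 and Glrx. Ddx39b differed from TKO and QKO but not, at an adjusted p of 0.537, from LBRKO by the same limma test.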

How the results depend on the processing

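Of the 196 named genes, 156 were called. These kept their direction under every alternative on the relative scale in which they were tested (82 among genes of at least 10 kb, 132 without chromosomes 6, 8, X and Y). Of the 40 not called 4 turned sign with division by the mean over genes and up to 6 without 1 library. Direction on the spike-in scale was not counted. Of the 196, 182 kept their side of the threshold with division by the mean over genes, 193 with edgeR, 186 with the 6 WT libraries alone and 196 with the replicate block. The replicate numbers do not pair the libraries: deviations of libraries of the same number correlated from -0.08 to 0.07 with LAP2B, -0.25 to 0.00 with LMNB1 and 0.00 to 0.02 with IGG. With the replicate number as a block 22707 genes were called with LAP2B against 22786 without it, and 6134 with LMNB1 against 9517. For LAP2B genes of at least 10 kb alone 15014 were called, and leaving out 1 library gave 14406 to 23412. On the spike-in scale, 8596 became 13275 with the factor applied to reads, 2925 with no filter, 4561 for genes of at least 10 kb, 3138 with the 6 WT libraries alone, and 1825 to 10835 with 1 library left out. Without a filter LMNB1 gave 708 and IGG 0 (8232 at an unadjusted p under 0.05, by limma). LMNB1 gave 1793 to 13832 with 1 library left out. IGG calls were 87 and 560 with pseudocounts of 0.01 and 0.5 of the median, 1041 for genes of at least 10 kb and 8 to 530 with 1 library left out, against 354. The differences of WT from QKO were 18646 among genes of at least 10 kb, which leaves fewer genes to test. With 1 WT library left out those from LBRKO were 9477 to 15684, those from TKO 4300 to 7729 and those from QKO 28464 to 32646. The lamina contrast differed by -1.11 to -0.83 and the GC contrast by 0.45 to 0.65 in such fits.

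TE calls were less stable. The total of 332 was 1165 with division by the mean over families, 76 with the 6 WT libraries alone, 23 with the median over copies and 113 to 351 with 1 library left out, and on the spike-in scale it was 0 throughout. The cause of each move was not tested. A change of divisor shifts all families by nearly the same amount, here to a median of -0.34. The turned signs listed next follow from that shift. Division by the mean over families turned 41 of the 80 named families from above to below 0: L1ME5 (-0.19), L1ME3C (-0.19), L1MEb (-0.20), B2_Mm1a (-0.061), B2_Mm1t (-0.10), PB1 (-0.11), RMER12B (-0.084), MYSERV6-int (-0.14), LTRIS4 (-0.16), MER91C (-0.11), L1MdA_I (-0.33), L1MdA_II (-0.36), L1MdTf_I (-0.27), L1MdTf_II (-0.28), L1MdTf_III (-0.26), L1MdGf_I (-0.36), L2a (-0.30), L2b (-0.26), MIR (-0.27), B1_Mm (-0.26), B1_Mus1 (-0.19), B1_Mus2 (-0.20), B2_Mm2 (-0.13), B3 (-0.21), B4 (-0.26), ID_B1 (-0.19), IAPLTR1_Mm (-0.25), IAPLTR1a_Mm (-0.18), IAPLTR2_Mm (-0.27), MERVL-int (-0.29), MT2B (-0.22), ETnERV-int (-0.31), MMETn-int (-0.23), RLTR9A (-0.33), MMERGLN-int (-0.18), ORR1A2 (-0.33), MTD (-0.32), MMVL30-int (-0.33), RLTR6-int (-0.23), IMPB_01 (-0.33) and MMERVK10C-int (-0.21). With the median over copies RMER12B was -0.083, FordPrefect -0.0103, UCON2 0.070 and Tigger8 0.0085, each with the sign turned. Elements of few reads, short genes and multicopy families limit what this depth can show: only primary alignments were kept, so a read that maps to several copies was placed at one of them.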

Other observations

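Calls with LAP2B were counted over stretches of the genome. Of 2191 windows of 1 Mb with at least 10 tested genes, 302 had at least 50% of their genes lower in EpiLCs and 144 at least 50% higher. Of the same windows 415 held both a gene that rose and a gene that fell, and 62 held no call. In the window chr2:135000001-136000000, which holds the coding genes Plcb4, Pak5 and Lamp5, all 16 genes fell, with a median log2 change of -0.91 (LMNB1 -0.59, IGG -0.43). At chr2:87000001-88000000, a run of olfactory receptor genes, 48 of 76 fell and 0 rose (median -0.87), and at chr12:115000001-116000000, part of the immunoglobulin heavy chain locus, 52 of 75 fell and 0 rose (-0.79). At the other end, chr10:80000001-81000000 had 75 of 100 higher and 0 lower (0.87, LMNB1 0.70, IGG 0.21) and chr7:44000001-45000000 had 77 of 106 higher and 0 lower (0.80). These windows were picked for their values, their genes share bins, and no test was run on them.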
